A study of Mus musculus with 12 samples.

Results

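The 8 genes described here write, maintain and oxidize DNA methylation: Dnmt1, Uhrf1, Dnmt3a, Dnmt3b, Dnmt3l, Tet1, Tet2 and Tet3. Their accessible chromatin was read from the deposited list of merged ATAC-seq regions, from an assay in which a transposase cuts open DNA and leaves adapters for sequencing. A region of the list belonged to a gene when it overlapped the gene body or the 50 kb on either side of it, and 199 of the 170548 regions did so, none of them for more than 1 gene. The list merges peaks of the ZHBTc4 and 2TS22C experiments, for which the labels give 12 libraries of mouse ES cells. Per the study's methods, the cells were grown in serum + 2i + LIF. Whether peaks of published ZHBTc4 data from serum + LIF were also merged is not given in the sources used here. In ZHBTc4 cells, where a dox-repressible transgene is the source of OCT4, there were 2 libraries without dox (OCT4 ON) and 2 libraries with 1 µg/ml dox for 24 hr (OCT4 OFF). In 2TS22C cells, where SOX2 comes from such a transgene, there were 2 libraries without dox and 2 with 1 µg/ml dox at 26 hr, and again 2 and 2 at 40 hr (SOX2 ON and SOX2 OFF). Both are established lines, so they stand for engineered ES cells and not for an embryo. The list holds the start and end of each region in bp and neither a height nor a value per library, so the line and treatment in which a region was open cannot be told, the depth is unknown, and there are no replicate errors and no tests.

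In mammals, DNMT3A and DNMT3B place methyl groups on unmethylated CpG dinucleotides with the help of the catalytically inactive DNMT3L, and DNMT1, guided by UHRF1 to half-methylated DNA, copies the pattern after replication. TET enzymes oxidize 5-methylcytosine, which opens a way to its removal. ES cells are known for expressing TET1, TET2 and the de novo enzymes together, for using a shorter form of DNMT3A that starts inside the gene, and for lowered methylation when grown with 2i.

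Several of these genes have more than 1 annotated promoter, and at Dnmt3l and Tet1 the widest promoter region was not at the main one. The 150 bases in front of 5 pairs of starts are therefore shown. Each pair holds the start of the principal transcript and then an alternative start of the same gene. The principal transcript is the one with the best APPRIS tag for main isoforms in GENCODE M21, and evidence for its start was not weighed. The bases were read from the RefSeq copy of GRCm38 in the sense of transcription. Capitals mark CpG, the dinucleotide that these enzymes act on.
Dnmt1-201, chr9:20952980-20953129, minus strand: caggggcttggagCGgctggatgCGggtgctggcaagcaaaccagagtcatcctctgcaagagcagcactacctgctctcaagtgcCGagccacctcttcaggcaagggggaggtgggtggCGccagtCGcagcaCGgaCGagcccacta
Dnmt1-202, chr9:20959889-20960038, minus strand: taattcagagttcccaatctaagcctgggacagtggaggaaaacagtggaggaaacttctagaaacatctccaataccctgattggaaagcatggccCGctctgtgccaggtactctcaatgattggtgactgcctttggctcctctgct
Dnmt3a-201, chr12:3806880-3807029, plus strand: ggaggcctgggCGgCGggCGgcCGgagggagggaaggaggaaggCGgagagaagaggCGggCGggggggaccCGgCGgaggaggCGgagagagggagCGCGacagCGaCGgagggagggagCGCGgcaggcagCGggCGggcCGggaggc
Dnmt3a-203, chr12:3891594-3891743, plus strand: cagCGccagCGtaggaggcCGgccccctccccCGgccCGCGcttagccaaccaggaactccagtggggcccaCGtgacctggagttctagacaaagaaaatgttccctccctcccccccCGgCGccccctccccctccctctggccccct
Dnmt3l-205, chr10:78042137-78042286, plus strand: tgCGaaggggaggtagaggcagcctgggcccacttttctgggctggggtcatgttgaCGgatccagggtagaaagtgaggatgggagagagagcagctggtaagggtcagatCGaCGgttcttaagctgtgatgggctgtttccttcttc
Dnmt3l-201, chr10:78049692-78049841, plus strand: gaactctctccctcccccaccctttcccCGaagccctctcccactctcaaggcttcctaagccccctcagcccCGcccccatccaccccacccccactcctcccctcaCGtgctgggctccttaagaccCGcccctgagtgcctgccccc
Tet1-206, chr10:62899119-62899268, minus strand: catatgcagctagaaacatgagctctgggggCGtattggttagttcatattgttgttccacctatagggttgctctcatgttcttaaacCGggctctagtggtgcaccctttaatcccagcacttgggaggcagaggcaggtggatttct
Tet1-207, chr10:62887325-62887474, minus strand: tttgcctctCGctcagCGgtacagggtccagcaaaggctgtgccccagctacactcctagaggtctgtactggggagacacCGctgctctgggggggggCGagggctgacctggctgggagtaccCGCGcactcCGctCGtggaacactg
Tet3-203, chr6:83456393-83456542, minus strand: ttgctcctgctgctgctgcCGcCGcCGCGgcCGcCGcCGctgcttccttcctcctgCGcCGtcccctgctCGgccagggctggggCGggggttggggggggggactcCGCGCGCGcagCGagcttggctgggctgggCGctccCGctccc
Tet3-202, chr6:83441676-83441825, minus strand: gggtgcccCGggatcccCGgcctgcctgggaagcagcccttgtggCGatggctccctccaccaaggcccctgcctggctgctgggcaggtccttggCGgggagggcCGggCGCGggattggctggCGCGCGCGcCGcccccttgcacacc

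In 7 of these 10 stretches all 150 bases lay inside a region of the list, and the other 3 had none of their bases in a region. The 3 were the upstream Dnmt1-202 start, with 1 CpG, the principal Tet1-206 start, with 2, and the principal Dnmt3l-205 start, with 4. Dnmt3l-201 also had 4 CpGs and lay fully inside a region, so the number of CpGs did not divide the stretches. The largest numbers were 19 in front of Dnmt3a-201 and 18 in front of Tet3-203, both within regions.

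The windows of the 8 genes held between 18 and 33 regions. Tet1 had 33, Dnmt1 32, Tet2 31, Dnmt3a 28, Dnmt3b 21, and Uhrf1, Dnmt3l and Tet3 18 each. Since the genes differ in length, density is the fairer measure: there were 21.0 regions per 100 kb around Dnmt1, 17.1 around Tet2, 16.1 around Tet1, 15.2 around Dnmt3b, 15.0 around Uhrf1, 14.8 around Dnmt3l, 13.4 around Dnmt3a and 9.15 around Tet3. The median of 21938 protein-coding genes was 10.2, with quartiles of 5.7 and 15.1. All of the 8 genes except Tet3 were above that median, and Tet3 was above it too with 100 kb flanks (percentile 52.1) and by share of bases covered (percentile 56.5). Dnmt1 had a higher density than 94.7% of protein-coding genes and Tet3 than 43.8%. Neighboring genes contribute to these numbers, because 30 of the 199 regions lay at promoters of other genes and 40 in their bodies.

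**Figure D1:**
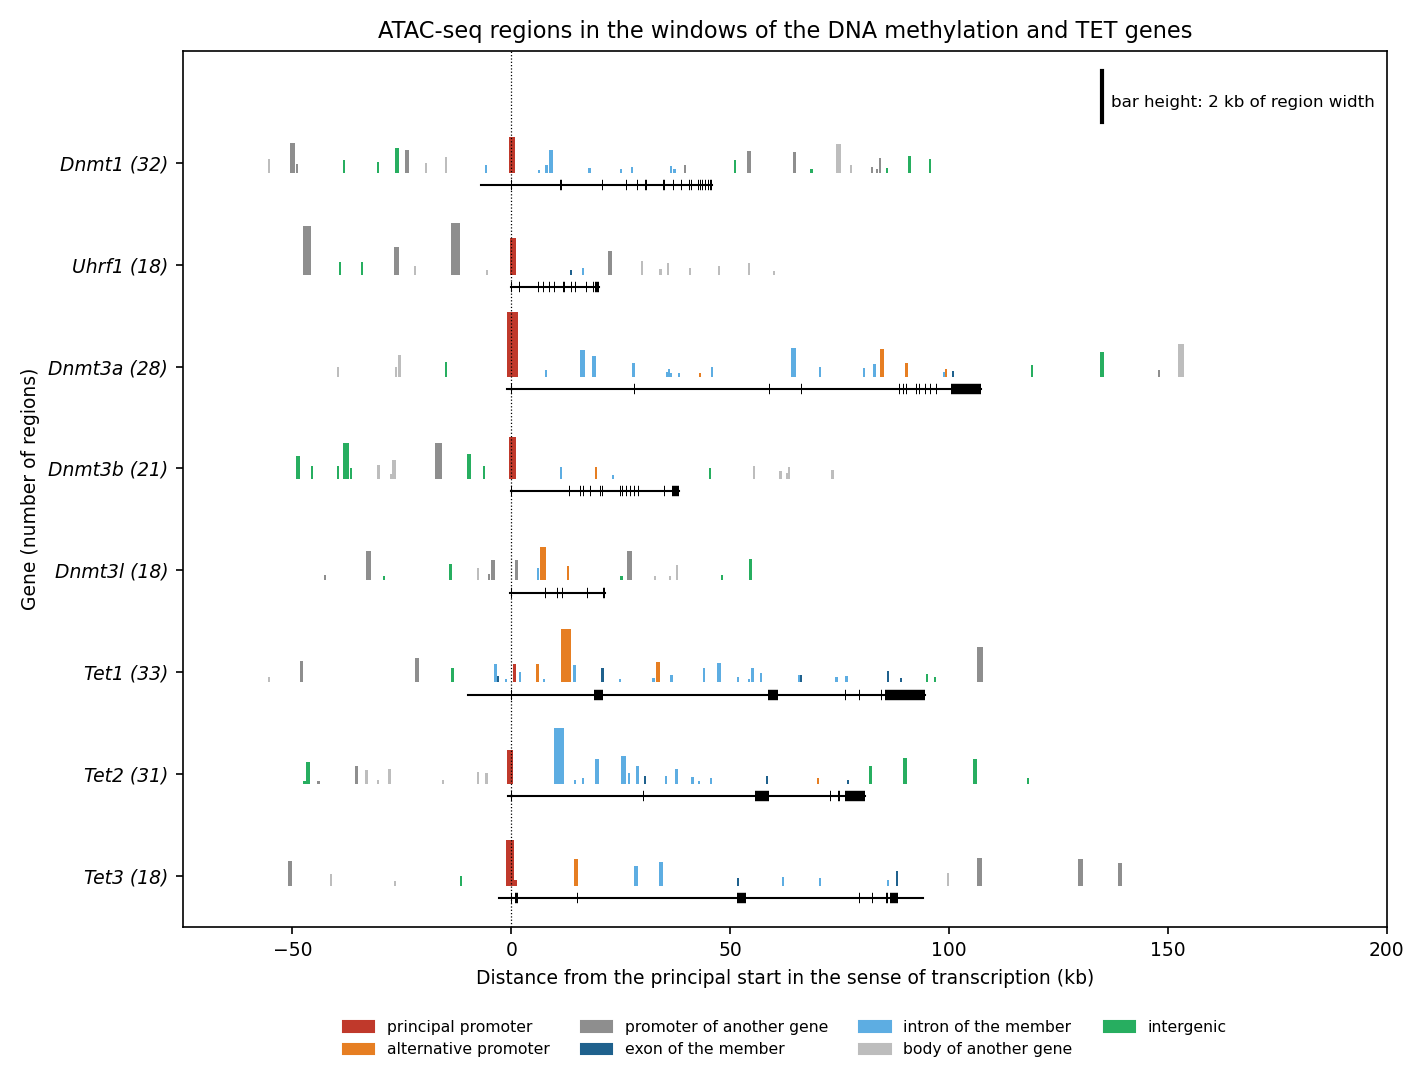
Regions in the window of each gene by distance from the principal start in kb, with bar height proportional to region width and color giving the class; narrow regions are drawn at a fixed minimum breadth. The black line below each row is the gene body with the exons of the principal transcript, and the tallest bar, 2558 bp, is the Dnmt3a promoter.

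By position, 8 regions lay at principal promoters, 12 at alternative promoters, 12 over exons and 61 in introns of the 8 genes, while 36 were intergenic. The median region in the windows was 454 bp wide, against 379 bp in the list. Regions centered within 1 kb of any annotated start, or covering one, made up 25.1% of the windows and 17.3% of the list, and intergenic regions 18.1% and 38.9%. The windows were drawn around genes, which fixes part of these shares, so they are a description of the windows only.

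**Figure D2:**
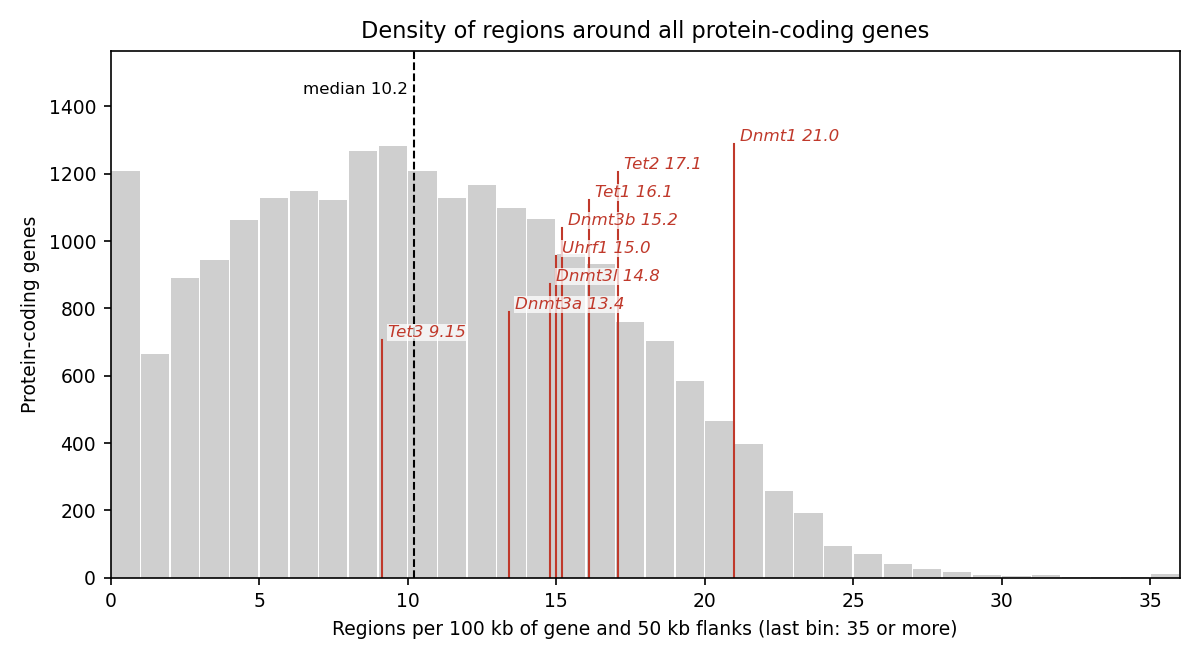
Number of protein-coding genes by regions per 100 kb of the gene and its 50 kb flanks (gray bars), with the median (dashed line) and the 8 genes (red lines). Dnmt1, at 21.0, stood farthest to the right and Tet3, at 9.15, was to the left of the median, though not with 100 kb flanks or by share of bases covered.

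A region was counted at a promoter when it covered a start or was centered within 1 kb of one. By this rule 7 of the 8 principal promoters had a region, and 69.4% of all protein-coding genes did. The exception was Dnmt3l, whose alternative start of Dnmt3l-201 was covered by a region. Dnmt3l-201 has the same protein length as the principal Dnmt3l-205, 421 residues. Where the region had to cover the start, the number was 6 of 8, against 64.3% of genes, and Tet1 was also without one.

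Of the maintenance genes, Dnmt1 (ENSMUSG00000004099.16, chr9:20907209-20959888, minus strand) had a 1407 bp region over its principal promoter, chr9:20952123-20953529. This region was wider than that of 76.9% of the genes with one, whose median was 1105 bp. Its GC content was 60.2% and its ratio of observed to expected CpG 0.541. An upstream first exon, which in mouse is known to serve the oocyte, starts the 1501-residue isoform Dnmt1-202 at a distance of 6.91 kb. No region was at that start by the 1 kb limit. The nearest was 314 bp wide and centered 1.14 kb downstream of it, which is 5.76 kb upstream of the principal start. Within the gene, the widest intronic region was 897 bp in intron 1, 9.06 kb downstream of the start, and the widest intergenic region of the window was 967 bp at 26.1 kb upstream.

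Uhrf1 (ENSMUSG00000001228.14, chr17:56303321-56323486, plus strand), which recognizes half-methylated CpG, had both of its protein-coding start groups under 1 region of 1450 bp, chr17:56303048-56304497. The start groups lay about 1.03 kb apart. The region had 62.1% GC and a CpG ratio of 0.78. The rest of the short gene body held a 204 bp region over exon 11 and a 263 bp region in intron 13. The widest region of the window, 2034 bp, was at the promoter of the neighbor Plin3.

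Among the de novo enzymes, Dnmt3a (ENSMUSG00000020661.15, chr12:3806007-3914443, plus strand) had the widest principal promoter region, 2558 bp at chr12:3806099-3808656. It was wider than that of 99.3% of the genes with such a region, and its GC content of 75.1% was the highest of the 8 genes. A second promoter 84.7 kb further into the gene starts the 689-residue isoform known from ES cells as DNMT3A2. It was covered by a region of 1107 bp, chr12:3891184-3892290, with 61.7% GC and a CpG ratio of 0.5. Both Dnmt3a promoters were thus in the list, the upstream one more than 1 kb wider. Of the 11 alternative promoters of Dnmt3a, 5 had a region, and the remaining regions were 154 bp, 303 bp and 535 bp wide or shared with the principal promoter. In the introns, the widest regions were 1115 bp in intron 4 and 1043 bp in intron 1.

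Dnmt3b (ENSMUSG00000027478.15, chr2:153649450-153687730, plus strand) had a region of 1617 bp over its principal promoter, chr2:153648846-153650462, wider than that of 88.0% of genes. The 10 transcripts that start there include the principal isoform. Its body held few regions: 454 bp in intron 1, 436 bp near the start of a non-coding transcript in intron 7 and 157 bp in intron 12. A stretch of 21.8 kb without any region ran from 23.3 kb to 45.1 kb past the start. Upstream, an intergenic region of 1416 bp lay 37.8 kb from the start and one of 946 bp at 9.6 kb. Downstream, 5 regions of 236 bp to 509 bp lay in the body of Dnmt3c, a close paralog of Dnmt3b that acts in the male germ line, and reads shared by the copies cannot be told apart in the list.

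Dnmt3l (ENSMUSG00000000730.13, chr10:78041947-78063622, plus strand), the inactive partner of the de novo enzymes, had its widest promoter region at an alternative start. Its principal start had no region within the limit, and the nearest, 815 bp wide and centered 1.25 kb downstream, overlapped a start of the neighboring gene Aire. An alternative promoter 7.61 kb downstream starts Dnmt3l-208 and Dnmt3l-201, the latter with the same protein length of 421 residues as Dnmt3l-205. This promoter was covered by 1331 bp, chr10:78048826-78050156. A region of 472 bp, chr10:78048134-78048605, lay just upstream of it. Another promoter, of transcripts for at most 126 residues, was covered by 581 bp.

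Of the TET genes, Tet1 (ENSMUSG00000047146.17, chr10:62804570-62908996, minus strand) also had its widest region away from the principal start. The region of 725 bp nearest the start of Tet1-206 was centered 0.695 kb downstream of that start, in intron 1, and did not cover it. This region had 47.9% GC and a CpG ratio of 0.145. It was wider than that of 16.6% of genes. By contrast, a region of 2103 bp, chr10:62885538-62887640, covered the starts of Tet1-207 and Tet1-210, 11.7 kb downstream, and had 57.3% GC and a CpG ratio of 0.643. RefSeq places its Tet1 start at the same base as Tet1-207, 62887324. GENCODE gives only a 47-residue coding sequence to Tet1-207, so which start counts as the main one differs between the annotations. The starts of Tet1-201, with 2007 residues, and of Tet1-208 had no region.

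Tet2 (ENSMUSG00000040943.12, chr3:133463679-133545139, minus strand), the TET gene without a CXXC DNA-binding domain of its own, had a 1350 bp region over its principal promoter with 66.0% GC and a CpG ratio of 0.879, the highest ratio of the principal promoter regions. The start of Tet2-205, 0.749 kb upstream, was under the same region. The widest region of its window was not the promoter but a region of 2189 bp in intron 1, chr3:133532424-133534612, centered 10.9 kb downstream of the start.

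Tet3 (ENSMUSG00000034832.15, chr6:83362373-83459084, minus strand), the TET gene known from the oocyte and zygote, had both of its main promoters in the list. The longest isoform, of 1803 residues, starts under a region of 1817 bp with 70.4% GC and a CpG ratio of 0.77, wider than that of 93.6% of genes, and a 240 bp region lay next to it. The 1668-residue isoform, which starts 14.7 kb downstream in the same group of starts as the one RefSeq gives, had a region of 1077 bp, chr6:83441021-83442097. The start of Tet3-204 had none. The introns held few regions, the widest being 959 bp and 802 bp in intron 3.

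**Figure D3:**
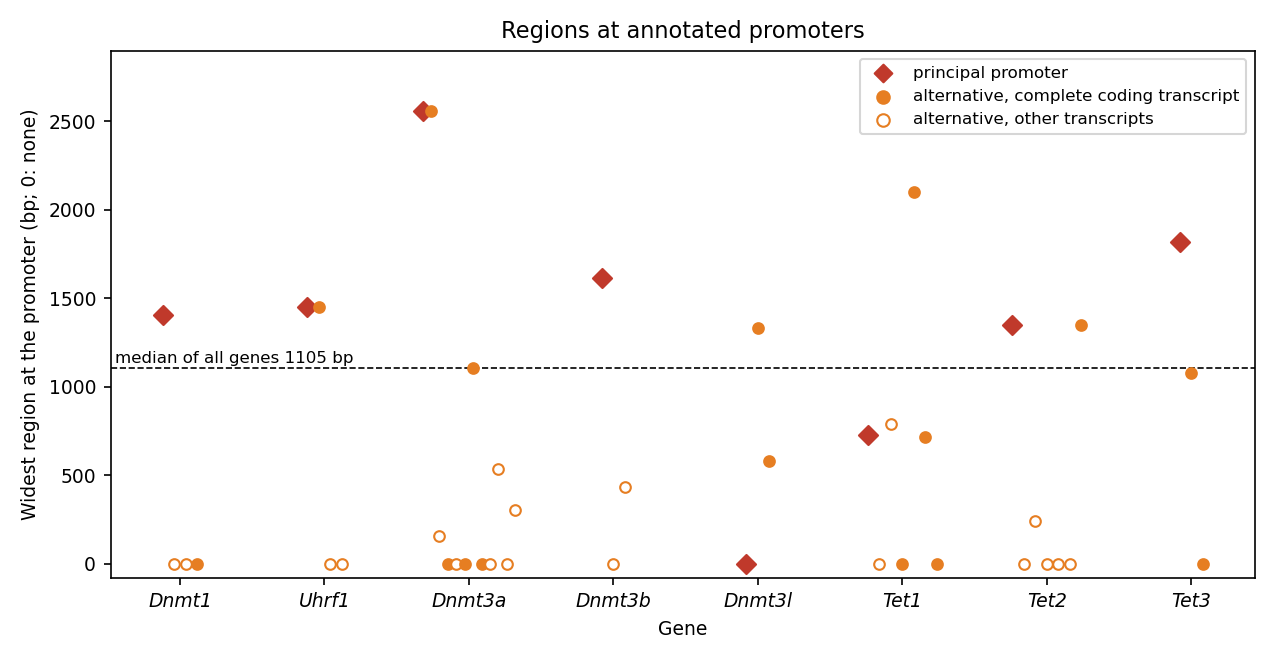
Width in bp of the widest region at each annotated promoter, with principal promoters as diamonds and alternative promoters as circles. Filled circles are alternative promoters of coding transcripts with a complete annotated start, and open circles are the other alternative promoters. A width of 0 means no region. The principal promoters of Dnmt3l (0) and Tet1 (725 bp) lie below alternative promoters of the same genes, at 1331 bp and 2103 bp.

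Of the 35 alternative promoters of the 8 genes, 15 had a region, against 30.8% of the alternative promoters of all protein-coding genes. Some of the 15, at Uhrf1, Dnmt3a and Tet2, shared the region of the principal promoter, and 12 regions lay at alternative promoters alone. The share over all genes was counted by the same rule. The alternative promoters include ends of incomplete and non-coding transcripts, which need not be true starts. Coding transcripts with a complete annotated start had a region at 9 of 16 promoters and other coding ones at 1 of 5. Non-coding ones had a region at 5 of 14. The far ends of the coding transcripts were not checked, and Dnmt3a-208, counted as complete at its start, codes for 41 residues. With coding transcripts alone, 10 of 21 promoters had a region, against 38.5%. Regions covered a start at 11 of the 35, or 31.4%, against 16.7%. Alternative promoters of 1 gene share its sequence context, and the genes are few, so these shares are given as a description.

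Away from promoters, 149 of the 199 regions were distal. Joining distal regions with gaps of at most 5 kb gave 5 clusters of at least 4 regions, in 4 of the 8 windows, and 29.3% of protein-coding gene windows had at least 1 such cluster. The number depends on the gap: gaps of at most 2 kb gave 2 clusters and the longest gap tried gave 11. The Tet2 cluster was the longest. Its 13 regions spanned 36.0 kb from edge to edge, with centers from 10.9 kb to 45.7 kb downstream of the start, and covered 7752 bp. By the same 5 kb limit, a cluster of at least 13 regions occurred in 0.232% of protein-coding gene windows. The number 13 was the Tet2 count itself, and the windows were not matched for length, that of Tet2 being 181 kb. The gap between the Tet2 regions ending at 133519320 and starting at 133524290 was only just under 5 kb. A slightly lower limit would therefore split the Tet2 cluster. This cluster lay in the first 2 introns, with 7 regions in intron 1 and 6 in intron 2 of the principal transcript. In Tet2 intron 1, beside the 2189 bp region, regions of 1115 bp and 997 bp lay 25.6 kb and 19.6 kb from the start.

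Tet1 had a cluster of 6 regions in intron 3 over 13.4 kb and one of 4 regions on either side of its principal start over 6.3 kb. A cluster of at least 6 regions was found in 7.89% of protein-coding gene windows, again not matched for length. The 4 regions of the Dnmt3a cluster were packed into 2.94 kb of intron 2 and were narrow, at most 309 bp. The 4 regions of the Uhrf1 cluster lay in the body of the neighbor Kdm4b. In the Tet3 window no more than 2 distal regions could be joined, and its introns 3 and 4, 36.4 kb and 16.6 kb long, held 2 regions and 1 region.

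Seen over the gene bodies alone, 26 regions overlapped Tet1, 20 Dnmt3a, 17 Tet2, 11 Dnmt1, 10 Tet3, 4 each Dnmt3b and Dnmt3l, and 3 Uhrf1. The share of the body that was covered was 14.8% for Dnmt3l, 11.9% for Tet2, 11.5% for Tet1, 10.4% for Dnmt3a, 8.38% for Dnmt1, 8.15% for Uhrf1, 6.92% for Tet3 and 5.38% for Dnmt3b. So the short Dnmt3l gene was the most covered, by few wide regions, and Dnmt3b the least. Of the Dnmt3l regions, the 815 bp one overlapped a start of the neighbor Aire.

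CpG-rich regions, those with at least 55% GC and a CpG ratio of at least 0.65, numbered 19 of 199, against 6.44% of the list. Among promoter-proximal regions alone it was 17 of 50 in the windows, against 31.3% in the list. They were 5 of the 8 regions at principal promoters, none of the 12 at alternative promoters alone, 12 of the 30 at promoters of other genes and 2 of the 40 in bodies of other genes. The 5 were those of Uhrf1, Dnmt3a, Dnmt3b, Tet2 and Tet3, while the Dnmt1 region missed the limit on the CpG ratio. The 2103 bp Tet1 region, with a ratio of 0.643, fell just short of it. The median CpG ratio was 0.735 at principal promoters, 0.293 at alternative promoters, 0.215 in introns of the 8 genes and 0.208 in intergenic regions. No intronic or intergenic region was CpG-rich.

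**Figure D4:**
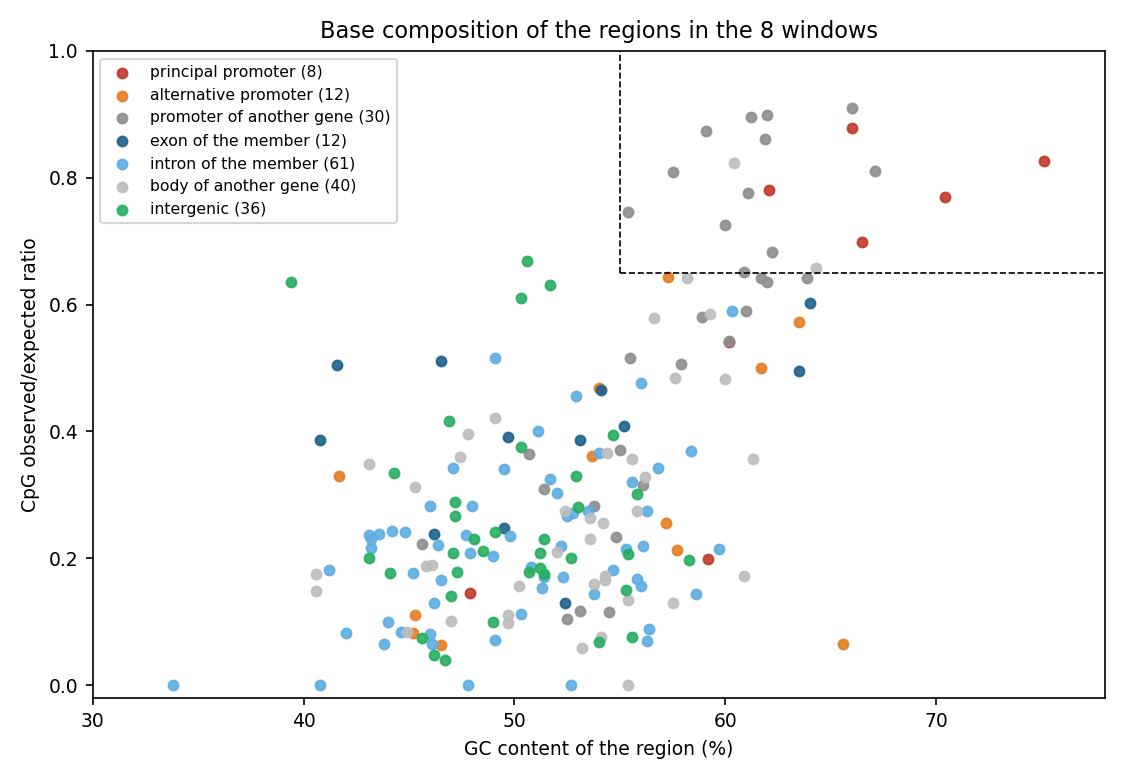
GC content in percent and observed/expected CpG ratio of the 199 regions, colored by class; dashed lines mark the limits of 55% and 0.65 for a CpG-rich region. Principal promoters (red) and promoters of other genes (dark gray) fill the upper right, and intronic regions (light blue) lie below the limit.

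OCT4 and SOX2 bind side by side at a composite motif, a SOX element and an octamer 1 base apart. The central 200 bp of each region was searched on both strands, with at most 2 mismatches over the 14 fixed bases, and 1 of the 199 regions held a match, against 0.571% of the list. It is the 472 bp Dnmt3l region just upstream of the alternative promoter. A further match lay outside the central part of the 436 bp Dnmt3b region in intron 7. Single elements were searched without mismatches: the octamer ATGCAAAT, the SOX element CATTGT, the extended ESRRB element TCAAGGTCA, the KLF box CCACACCC, the AP-2 palindrome GCCNNNGGC, the CTCF core AGGGGGCGC, E2F as TTTGGCGC or TTTCCCGC, NRF1 as GCATGCGC, ETS as CCGGAAG and YY1 as AAGATGGCG. In 36 regions narrower than 200 bp the search reached past the region's ends. The matches below are those to the composite motif and, picked after their values were seen, others at or inside the genes, with the match in capitals and the surrounding bases in lower case.
Dnmt3b composite match, chr2:153668682-153668736, plus strand: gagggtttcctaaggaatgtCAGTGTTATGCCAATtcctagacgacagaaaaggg
Dnmt3l composite match, chr10:78048334-78048388, minus strand: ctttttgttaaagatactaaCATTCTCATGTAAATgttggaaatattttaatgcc
Dnmt1 octamer, chr9:20925376-20925415, plus strand: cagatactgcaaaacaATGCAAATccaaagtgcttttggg
Uhrf1 E2F, chr17:56303738-56303777, plus strand: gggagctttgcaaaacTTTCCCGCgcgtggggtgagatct
Dnmt3a ESRRB element, chr12:3890092-3890132, plus strand: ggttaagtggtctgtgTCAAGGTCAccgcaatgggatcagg
Dnmt3a CTCF core, chr12:3891699-3891739, minus strand: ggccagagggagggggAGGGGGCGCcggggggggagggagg
Tet1 ESRRB element, chr10:62897039-62897079, plus strand: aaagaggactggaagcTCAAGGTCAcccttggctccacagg
Tet2 octamer, chr3:133513652-133513691, plus strand: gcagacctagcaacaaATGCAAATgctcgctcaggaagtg

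The E2F match, TTTCCCGC, was the only one among the 199 regions and lay in the Uhrf1 promoter region, against 0.525% of the list. The CTCF core was in 3 regions, against 0.652%, and 1 of these was the DNMT3A2 promoter region, while another was the 815 bp region at the Aire start, in intron 1 of Dnmt3l. The same letters were in 1 of 15 RefSeq promoters of the 8 genes, the Dnmt3a one at 3891744, and in 1.11% of all RefSeq promoters, each taken as the 250 bases before the start. Of the other single elements, only the AP-2 palindrome was in these 15, in 3 of them, against 13.7% of all RefSeq promoters. The E2F letters were in 0 of the 15, against 1.3%, and the SOX element in 0, against 10.7%. The Uhrf1 E2F match thus lay outside these stretches. The ESRRB element was in 5 regions, or 2.51%, against 1.2% of the list, of which 2 are shown, while the match in Tet2 lay beyond the end of a 142 bp region. The octamer was in 3 regions, or 1.51%, against 2.01%, and the SOX element in 31, or 15.6%, against 12.6%. The AP-2 palindrome was in 23, or 11.6%, against 9.36%, while the KLF box was in 5, against 3.54%. The NRF1 letters were in 2 regions, against 0.671%, and the ETS letters in 5, against 2.59%. The YY1 letters were in 0, against 1.45%. Counts this small cannot separate the windows from the list, and a match is only a run of letters, not a bound site.

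Genes that act with these enzymes were read the same way. Of 39 such genes, 36 had a region at their principal promoter, where 69.4% of all protein-coding genes had one. All 5 replication and maintenance partners did, as did all 10 readers of methylated DNA, all 5 CXXC and TET partners and all 4 genes of methyl donor and cofactor metabolism. Of the 7 genes for removal of oxidized or deaminated bases 5 did. Smug1, which removes uracil, did not, although 3 of its 4 alternative promoters had a region. Of the 8 protection and targeting genes 7 had a region at their principal promoter, the exception being Dppa3, which keeps UHRF1 away from chromatin. The median density was 15.6 regions per 100 kb in these genes and 15.1 in the 8 genes, against 10.2 over all protein-coding genes. The most regions were in the windows of Usp7 (40), a deubiquitinase that binds DNMT1, and of Kdm2b and Nsd1 (39 each). These windows were long, at 203, 219 and 209 kb, and the densities were 19.7, 17.8 and 18.7 regions per 100 kb. Of 23 Polycomb genes, another group of chromatin repressors, all had a promoter region, with a median of 16.4 regions per 100 kb. Their alternative promoters had a region in 28 of 58 cases, those of the 39 genes in 46 of 101, and those of the 8 genes in 15 of 35, against 30.8% over all protein-coding genes.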

How the data were processed

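ATAC-seq was run on 12 libraries in 6 groups of 2 biological replicates. Per the submitters' processing notes and the study's methods, the authors aligned reads to mm10 (GRCm38) with STAR 2.6.1c, removed duplicates with Picard, called peaks with MACS2 2.1.1.20160309 and merged the ZHBTc4 and 2TS22C peaks with bedtools. Their methods also remove peaks over 5 kb, Input peaks and blacklisted peaks. The list still holds 16 regions over 5 kb, and the other removals were not checked. The deposited values are region positions in bp, with no score or count. Whether peaks were called per replicate is not given in the sources used here. None of the columns belongs to a single library (0 columns), so depth is unknown and no groups were compared.

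Regions were placed on GENCODE M21 (GRCm38) and coordinates are counted from 1. Starts within 500 bp were joined into 1 promoter, and the promoter of the best APPRIS transcript is the principal one. Ties went to the longest coding sequence and then to the transcript with the longest span. Functions were tested on simulated data. For each gene, the regions at its promoters, the 3 widest exonic or intronic regions and the widest intergenic region could be named, and others were picked after their values were seen. The genes and lists were chosen with earlier results of these data known. The values of 1 gene of the lists are not reported here. Python 3.11.15, NumPy 2.4.6 and matplotlib 3.10.9 were used.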

Additional observations from a re-analysis of the deposited data

How the results depend on the processing

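No paired analysis was possible because the libraries are pooled and no sample has its own values. For this reason no replicate could be left out, and without a score no stricter peak threshold could be applied. Of 29 alternative values for 9 counts, 23 stayed within 1.5 times the reported one. Flanks of 100 kb gave 299 regions in place of 199. The composite motif was found in 0 regions with at most 1 mismatch, in 4 with at most 3 mismatches and in 2 when the central 400 bp was searched, in place of 1, with 0.0504%, 3.4% and 0.926% of the list. Joining distal regions over gaps of 2 kb gave 2 clusters and over the longest gap tried 11, in place of 5. The unknown depth limits every absence: a promoter without a region is one with no region in this list, whether a peak was not called or was removed.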
